A study of Rattus norvegicus with 10 samples.

Results

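The lysosomal cathepsins are the proteases that break proteins down inside lysosomes. The 9 described here (Ctsa, Ctsb, Ctsc, Ctsd, Ctsh, Ctsk, Ctsl, Ctss and Ctsz) were taken by gene symbol from an array table of 43686 probe sets, of which 27502 carried a symbol and which covered 19026 named genes. Each gene matched 1 probe set, so 9 probe sets stood for 9 genes. Ctsl is deposited under its older symbol Ctsl1, and the Ctsd probe set is deposited against an expressed sequence tag where the other 8 carry a reference mRNA accession.

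The tissue was the lateral gastrocnemius, a calf muscle, dissected from the left hind limb of male Sprague-Dawley rats, an outbred stock, and snap frozen. The aged group held 5 rats given an age of 24 months that were 28 months old at necropsy, and the young control group held 5 rats given an age of 6 months that were 7 months old at necropsy. The labels give no treatment for either group, both had free access to food and water, and each rat gave 1 array from total RNA of the muscle. The aged rats stood for sarcopenia, in which muscle is lost with age. The columns of aged animals 4 and 5 bear the word replacement. Aged animal 1 stood apart from the other aged animals by its macrophage and general leukocyte marker sums and its class II genes. It did not stand highest by its T and NK cell, B cell, mast cell or neutrophil marker sums. Calls that are lost or turned without these arrays are given with that value.

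Cathepsins are made as inactive precursors, carried from the Golgi to lysosomes by mannose 6-phosphate receptors, and activated by cleavage at acid pH. Most are cysteine proteases, Ctsd is an aspartic protease and Ctsa a serine carboxypeptidase. Ctsa, Ctsb, Ctsd and Ctsl are found in most cell types, muscle fibres included, and Ctsl is known in rodent muscle as a gene that rises with fasting and denervation. Ctsc, Ctsh, Ctss and Ctsz are richest in macrophages and other myeloid cells, and Ctsk is the collagen-degrading enzyme of osteoclasts and is also made by fibroblasts. Cystatins and stefins inhibit the cysteine cathepsins.

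Promoter sequences were printed for the cathepsin with the largest age change in these arrays (Ctsl), the one with the smallest (Ctsd) and the myeloid cathepsin with the largest (Ctss). They are RefSeq sequences of the rat assembly GRCr8, each 300 bases long, from 250 before to 50 after the annotated start, on the gene's strand: Ctsl at chr17:769854-770153 (plus strand), Ctsd at chr1:206968772-206969071 (minus strand) and Ctss at chr2:185775146-185775445 (plus strand). Capitals mark matches, on either strand, to 4 motifs: CACGTG, the E-box read by Tfeb and its relatives; GAGGAAGT, a site for the myeloid factor PU.1; the interferon response element (GAAA, any 2 bases, GAAA); and GGGCGG, the GC box of broadly active promoters.

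Ctsl: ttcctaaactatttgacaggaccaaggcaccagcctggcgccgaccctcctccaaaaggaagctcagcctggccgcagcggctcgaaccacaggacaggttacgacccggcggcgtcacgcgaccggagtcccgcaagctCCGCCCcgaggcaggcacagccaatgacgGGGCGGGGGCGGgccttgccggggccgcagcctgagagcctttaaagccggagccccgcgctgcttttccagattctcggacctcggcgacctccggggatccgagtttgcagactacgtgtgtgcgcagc

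Ctsd: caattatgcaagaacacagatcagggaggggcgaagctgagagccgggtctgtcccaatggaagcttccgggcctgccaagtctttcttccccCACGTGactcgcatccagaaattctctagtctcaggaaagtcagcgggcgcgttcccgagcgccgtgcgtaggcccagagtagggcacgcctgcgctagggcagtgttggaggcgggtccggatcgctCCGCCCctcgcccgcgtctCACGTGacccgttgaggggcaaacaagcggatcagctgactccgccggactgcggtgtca

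Ctss: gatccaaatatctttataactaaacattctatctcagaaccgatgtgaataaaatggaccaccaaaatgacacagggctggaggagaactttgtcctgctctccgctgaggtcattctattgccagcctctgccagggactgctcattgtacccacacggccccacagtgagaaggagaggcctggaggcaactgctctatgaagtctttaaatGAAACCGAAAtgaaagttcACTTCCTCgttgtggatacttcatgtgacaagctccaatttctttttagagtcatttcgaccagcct

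A promoter entry was found for 8 of the 9 genes, all but Ctsb. CACGTG was found in the Ctsd promoter alone among the 8, with matches that begin 157 and 10 bases before the start, and in 6.65% of 27457 promoters of the same length. GAGGAAGT was found in the promoters of Ctsc, 248 bases before the start, and Ctss, 17 bases before it, against 2.44% of all promoters. The interferon response element was found in Ctss alone of the 8, 36 bases before the start, against 3.77% of all. GGGCGG was found in 6 of the 8 (Ctsa, Ctsc, Ctsd, Ctsh, Ctsl and Ctsz), against 34.9% of all, and the Ctsl promoter held 3 matches, of which the pair at 81 and 75 bases before the start adjoin. The Ctsk promoter held none of the 4 motifs. Ctsk and Ctss are on chromosome 2 with 1 annotated gene between them. A match is a description of these letters and not a bound site.

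Of the 9 cathepsins, 7 were higher in aged muscle (Ctsa, Ctsb, Ctsc, Ctsh, Ctsl, Ctss and Ctsz), none was lower, and Ctsd and Ctsk did not pass the test. A gene passed where limma's fit over all 43686 probe sets, 5 aged against 5 young arrays, gave a Benjamini-Hochberg adjusted p under 0.05. At an unadjusted p under 0.05 the counts were 8 higher and 0 lower. Across all probe sets, 15% passed in either direction, 8.09% higher and 6.87% lower. By the brightest probe set of each named gene, 22.5% passed, 13.8% higher and 8.7% lower. Because bright probe sets pass more often, the nearer background is the 5934 genes at least as bright as the dimmest cathepsin, of which 26.6% were higher. The median log2 fold change was 0.59 over the 9 cathepsins, 0.074 over these 5934 genes and -0.01 over all named genes. Past a change of 1.5-fold as well were 5 cathepsins (Ctsb, Ctsh, Ctsl, Ctss and Ctsz), against 5.94% of all named genes. The aged and young animals did not overlap for 5 cathepsins (Ctsb, Ctsc, Ctsl, Ctss and Ctsz), each higher in aged animals. Of all named genes, 10.6% were without overlap and higher and 6.68% without overlap and lower. These shares and the 5.94% include dim genes and were not computed for comparably bright genes.

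**Figure D1:**
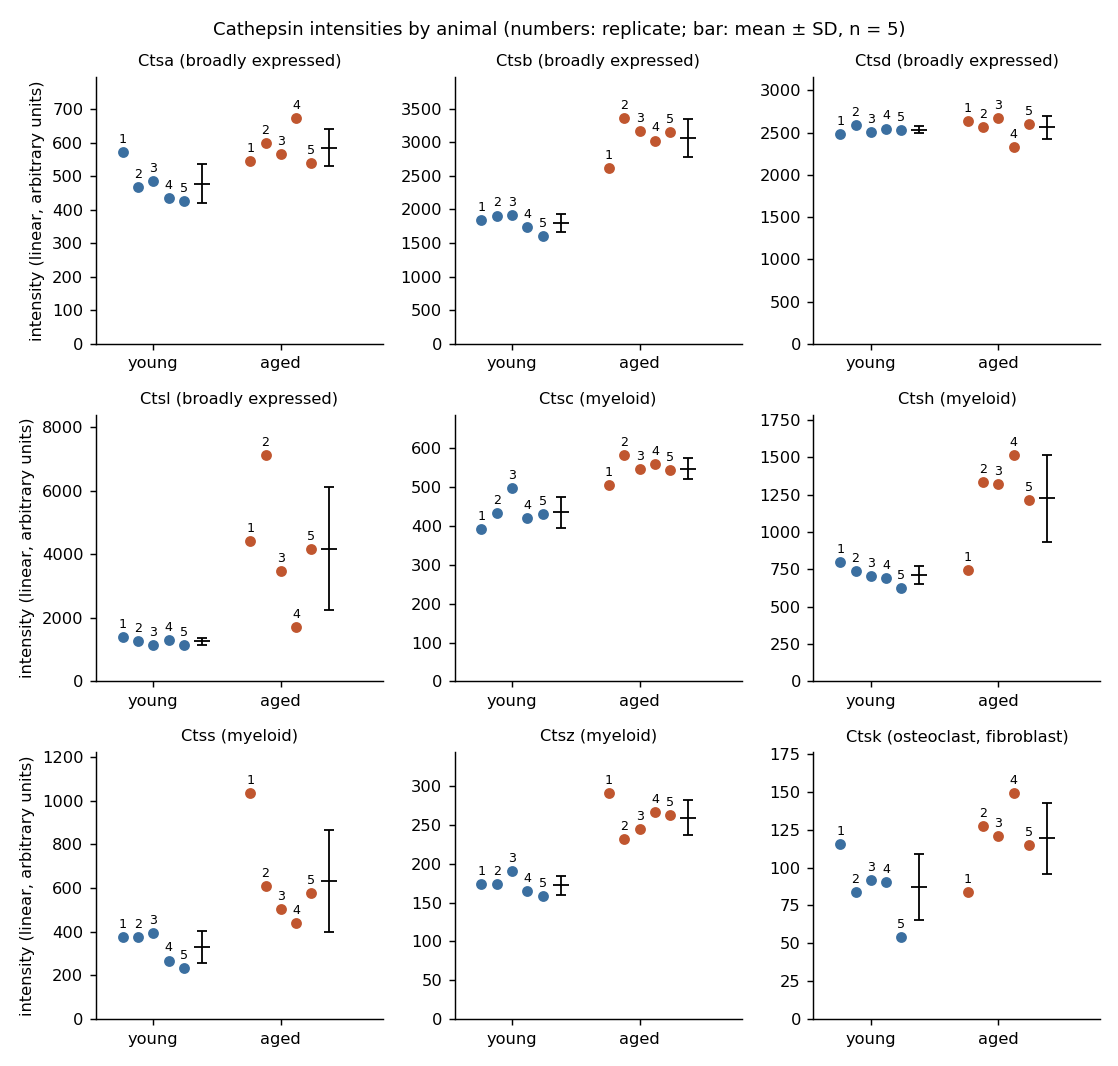
Intensity of the 9 cathepsins in each animal, 1 panel per gene, on a linear axis of array intensity in arbitrary units that starts at 0; each point is 1 animal with its replicate number, and bars give the group mean ± SD (n = 5 young, on the left, and 5 aged). The aged points of Ctsl spread from 1716 to 7110 and all lie above the young ones, and the Ctsd points of both groups lie together.

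Among the broadly expressed cathepsins, Ctsl, Ctsb and Ctsa were higher in aged muscle and Ctsd did not pass. Ctsl, a cysteine endopeptidase, had intensities of 4417, 7110, 3475, 1716 and 4179 in aged animals 1 to 5 and of 1386, 1276, 1141, 1313 and 1157 in young animals 1 to 5. Every aged animal was above every young one, with aged animal 4 nearest to the young and aged animal 2 farthest. Ctsl was 3.03-fold higher in aged muscle (log2 fold change 1.60 ± 0.27, SE; 95% interval 2.03-fold to 4.53-fold; adjusted p = 0.00153). The aged animals spanned a 4.14-fold range and the young ones a 1.21-fold range, and the SD of log2 intensity was 0.74 in aged and 0.12 in young animals (n = 5 each). Over leave-one-out fits the log2 fold change ran from 1.37, without aged animal 2, to 1.89, without aged animal 4.

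Ctsb, a cysteine protease that also trims carboxy termini, had intensities of 2616, 3365, 3172, 3027 and 3150 in the aged animals and of 1837, 1910, 1917, 1742 and 1599 in the young. The groups did not overlap, and aged animal 1 was the lowest of the aged. Ctsb was 1.70-fold higher in aged muscle (log2 fold change 0.77 ± 0.08; adjusted p = 9.03e-05). The aged group spanned a 1.29-fold range, against 4.14-fold for Ctsl in the same animals.

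Ctsa, the carboxypeptidase that shields β-galactosidase and neuraminidase in the lysosome, had intensities of 546, 599, 568, 675 and 540 in the aged animals and of 572, 468, 485, 436 and 426 in the young. Young animal 1 lay among the aged animals, and 2 of the 5 aged animals were above it. Ctsa was 1.23-fold higher in aged muscle (log2 fold change 0.30 ± 0.09; adjusted p = 0.0457). This adjusted p was the highest of the 7: it rose past the threshold in 8 of 10 fits that left out 1 animal (range 0.0136 to 0.11) and was 0.134 without aged animals 4 and 5, whose columns bear the word replacement.

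Ctsd, the main aspartic protease of the lysosome, had intensities of 2639, 2563, 2674, 2325 and 2597 in the aged animals and of 2482, 2592, 2505, 2547 and 2531 in the young. Aged animal 4 was the lowest of all 10 animals and aged animals 1, 3 and 5 were the highest. The group means were 2560 ± 138 in aged and 2532 ± 42 in young muscle (SD, n = 5), a log2 fold change of 0.01 ± 0.06 with an adjusted p of 0.912, and its sign turned under quantile normalization (-0.06). The 95% interval of the Ctsd fold ran from 0.921 to 1.11.

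The myeloid cathepsins all passed, Ctsc at the smallest fold. Ctss, the protease that clips the invariant chain of MHC class II molecules and keeps its activity at neutral pH, had intensities of 1036, 611, 505, 440 and 578 in the aged animals and of 377, 373, 395, 268 and 232 in the young. The groups did not overlap, and aged animal 1 stood highest. Ctss was 1.88-fold higher in aged muscle (log2 fold change 0.91 ± 0.21; adjusted p = 0.0104), and 1.64-fold without aged animal 1 (adjusted p = 0.00718).

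Ctsh, an aminopeptidase, had intensities of 745, 1337, 1320, 1513 and 1213 in the aged animals and of 797, 741, 708, 690 and 627 in the young. Aged animal 1 lay within the young range, and the other 4 aged animals were all above it. Ctsh was 1.68-fold higher in aged muscle (log2 fold change 0.75 ± 0.16; adjusted p = 0.0056), and 1.89-fold without aged animal 1 (adjusted p = 1.72e-05).

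Ctsz, a carboxypeptidase, had intensities of 292, 232, 245, 267 and 264 in the aged animals and of 174, 174, 190, 165 and 158 in the young. The groups were apart, with narrow ranges of 1.26-fold in aged and 1.20-fold in young animals. Ctsz was 1.51-fold higher in aged muscle (log2 fold change 0.59 ± 0.08; adjusted p = 0.000355).

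Ctsc, the dipeptidyl peptidase that activates the serine proteases of granulocytes and mast cells, had intensities of 506, 582, 548, 560 and 545 in the aged animals and of 393, 433, 499, 420 and 430 in the young. The lowest aged animal, at 506, was just above the highest young one, at 499. Ctsc was 1.26-fold higher in aged muscle (log2 fold change 0.34 ± 0.07; adjusted p = 0.00809).

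Ctsk had the dimmest probe set of the 9, which does not order transcript levels between genes, with intensities of 83.9, 127, 121, 149 and 115 in the aged animals and of 116, 83.7, 91.7, 90.2 and 54.3 in the young. The groups overlapped: aged animal 1 was below 3 of the 5 young animals and 3 aged animals were above all young ones. The log2 fold change was 0.47 ± 0.18 with an adjusted p of 0.111, and of 8 alternatives and 10 fits without 1 animal it passed only without aged animal 1 (log2 fold change 0.59; adjusted p = 0.0307). The other marker genes of osteoclasts were low, with Calcr and Oscar below the array median and a summed intensity of 46.9 to 50.1 in aged and 42.4 to 50.6 in young muscle over the 4 measured. Acp5, the tartrate-resistant phosphatase shared by osteoclasts and macrophages, was 1.45-fold higher (adjusted p = 0.00147). Its intensities, 11.15 to 14.2 in young and 16.38 to 20.79 in aged muscle, were near the array medians and are not shown to be above background. The fibroblast markers summed to 4032 to 5217 in aged and 3301 to 5307 in young muscle. Of these 6 markers, 2 (33.3%) were higher, Dpt (dermatopontin) 2.99-fold and Pi16 1.34-fold, against 26.6% of comparably bright genes. With 1 animal left out the count was 1 to 2.

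**Figure D2:**
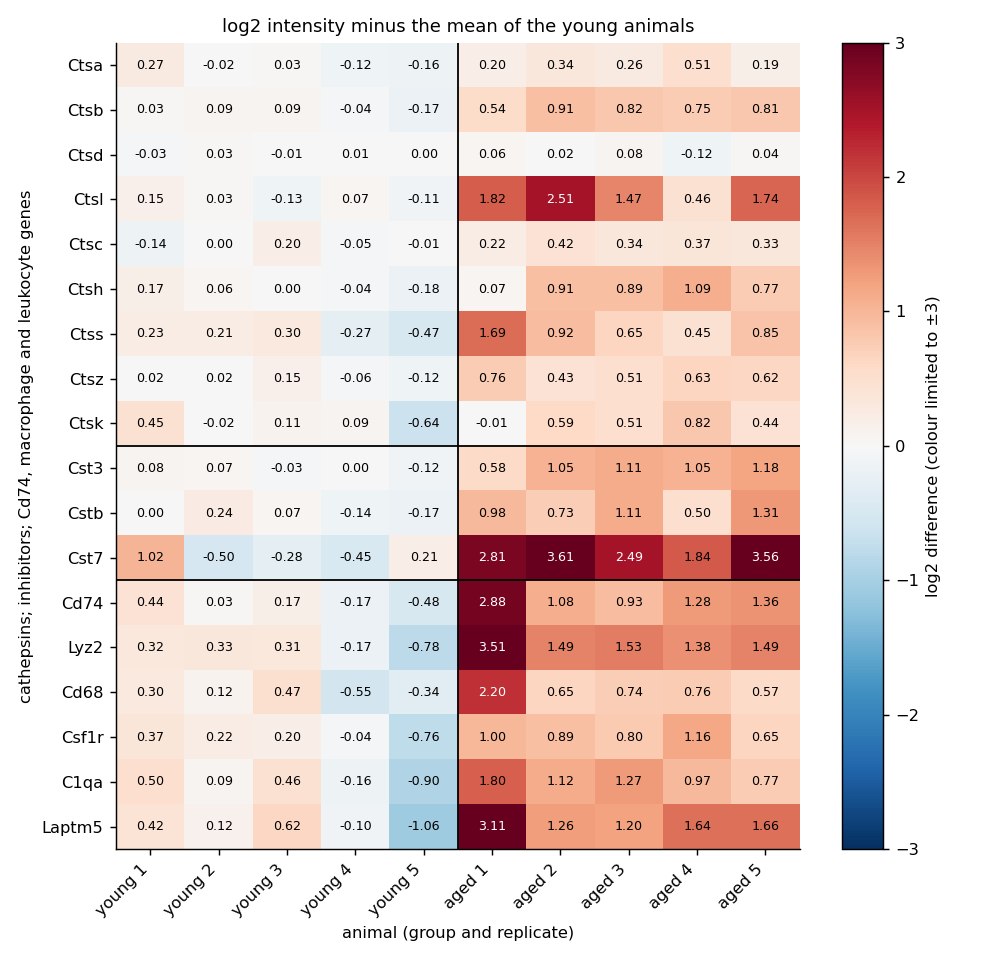
Log2 intensity of each cathepsin in each animal minus its mean over the 5 young animals, with marker and inhibitor genes below for comparison; columns are animals, rows genes, and colour and printed values give the shift. In aged animal 1 Ctss is at 1.69 and Ctsh at 0.07, and in aged animal 4 Ctsl is at 0.46 and Ctsh at 1.09.

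The 5 aged animals differed in which cathepsins were raised, given here as the log2 intensity minus the mean of the young animals. In aged animal 1, Ctss was at 1.69 and Ctsl at 1.82, while Ctsh was at 0.07 and Ctsk at -0.01. In aged animal 4 the order was turned, with Ctsh at 1.09 and Ctsk at 0.82 and both Ctsl and Ctss at 0.46 and 0.45. Aged animal 2 held the highest Ctsl shift, 2.51, with Ctsh at 0.91 and Ctss at 0.92. Aged animal 1 was the lowest of the aged animals for 4 of the 9 cathepsins (Ctsb, Ctsc, Ctsh and Ctsk) and the highest for Ctss and Ctsz. Aged animal 4 was the highest for Ctsa, Ctsh and Ctsk and the lowest for Ctsd, Ctsl and Ctss. Among the young, animal 5 was the lowest for 6 of the 9 (all but Ctsc, Ctsd and Ctsl).

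Most of the macrophage and leukocyte markers were higher in aged muscle, and their sums were highest in aged animal 1. Of 14 macrophage markers 8 (57.1%) passed as higher, against 26.6% of comparably bright genes, and none as lower (9 and 0 at an unadjusted p under 0.05, limma). Among them were Lyz2 (lysozyme, 3.68-fold), C1qa (2.28-fold) and Fcgr1a (2.10-fold), and the median log2 fold change over the list was 0.82. The summed intensity of the 14 markers was 10621 in aged animal 1 and 3861 to 4474 in the other aged animals. It was 1204 in young animal 5 and 1771 to 2582 in the other young ones. The scavenger receptor Msr1 and Mpeg1 lay below the array median. Lyz2 was at 7495 in aged animal 1, most of the sum there. It was at 1719 to 1901 in the other aged animals, against 383 to 830 in the young. Cd68, a lysosomal protein of macrophages, was at 311 in aged animal 1 and at 100.2 to 115 in the other aged animals, against 46.3 to 93.9 in the young. Its adjusted p reached 0.091 with 1 animal left out (limma). Among the aged animals, Cd68, Aif1, Lyz2, C1qa, C1qb, Fcgr1a and Mpeg1 were highest in aged animal 1. Cd163, Mrc1, Csf1r, Adgre1, Cd14, C1qc and Msr1 were highest in another aged animal. Of these markers, all but Lyz2, C1qa and Fcgr1a were named beside the rule. Of 8 general leukocyte markers 6 (75.0%) were higher, against the same 26.6%, led by Coro1a (4.00-fold), Laptm5 (3.42-fold) and Cd53 (2.49-fold). The summed intensity of the 8 was 2684 in aged animal 1, 1060 to 1385 in the other aged animals and 582 to 989 in the young. In these bulk samples more cells of a type and more RNA per cell cannot be told apart. In aged animal 1, where the macrophage and leukocyte sums were highest, Ctss and Ctsz were the highest of the aged animals. Ctsc and Ctsh were the lowest of the aged animals there. The class name myeloid is background knowledge and was not drawn from these arrays. The part of the immune cells in the cathepsin changes was not tested. Without aged animal 1 each of the 4 myeloid cathepsins passed as higher, and so did 9 of the 14 macrophage and 6 of the 8 leukocyte markers.

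Other markers gave the following counts, to be read beside the 26.6% of comparably bright genes that were higher. The 10 muscle fibre markers summed to 159741 to 166296 in aged and 162509 to 166812 in young muscle, with myoglobin (Mb) 1.16-fold higher (adjusted p = 0.0365) and Actn3 1.16-fold lower (adjusted p = 0.0483). Neither call held without aged animals 4 and 5 (adjusted p = 0.136 and 0.138), and that of Actn3 was also lost without aged animal 1 (0.0714). Of the T and NK cell markers 0 of 8 passed in limma's fit (1 at an unadjusted p under 0.05), and of the B cell markers 0 of 5 (0 unadjusted), 4 of them below the array median. Of 5 mast cell markers 2 (40.0%) were higher, the proteases Cpa3 (1.92-fold) and Cma1 (1.67-fold). Neither passed without aged animals 4 and 5 (limma, adjusted p = 0.0641 and 0.137). Of 6 neutrophil markers, 3 lay below the array median, and S100a8, the only one to pass (adjusted p = 0.0234), is among these 3, with intensities of 5.89 to 6.47 in young and 7.31 to 24.8 in aged muscle that are not shown to be above background. Of 6 endothelial markers none passed in limma's fit (0 higher and 2 lower at an unadjusted p under 0.05), and of 5 adipocyte markers Cfd was higher (2.46-fold), with an adjusted p of 0.0556 without aged animals 4 and 5.

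The MHC class II pathway, whose invariant chain Ctss cleaves, had 4 of 8 measured genes higher and none lower (6 and 0 at an unadjusted p under 0.05, limma), with a median log2 fold change of 1.42. Without aged animal 1, 5 were higher and 1 was lower: RT1-DMb, whose product helps load class II molecules, was at 904 in aged animal 1 and at 192 to 250.1 in the other aged animals, against 254 to 482 in the young, and was 1.58-fold lower without that animal (adjusted p = 0.0142) but not with it (adjusted p = 0.701). RT1-DMb was named beside the rule. RT1-Da was 3.28-fold, RT1-Bb 3.21-fold and Cd74, the invariant chain, 2.84-fold higher. Cd74 was at 4763, 1371, 1234, 1581 and 1662 in aged animals 1 to 5 and at 881, 665, 732, 578 and 465 in the young. As for Ctss, the groups did not overlap and aged animal 1 stood highest, and Cd74 stayed higher without it (adjusted p = 0.000229).

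**Figure D3:**
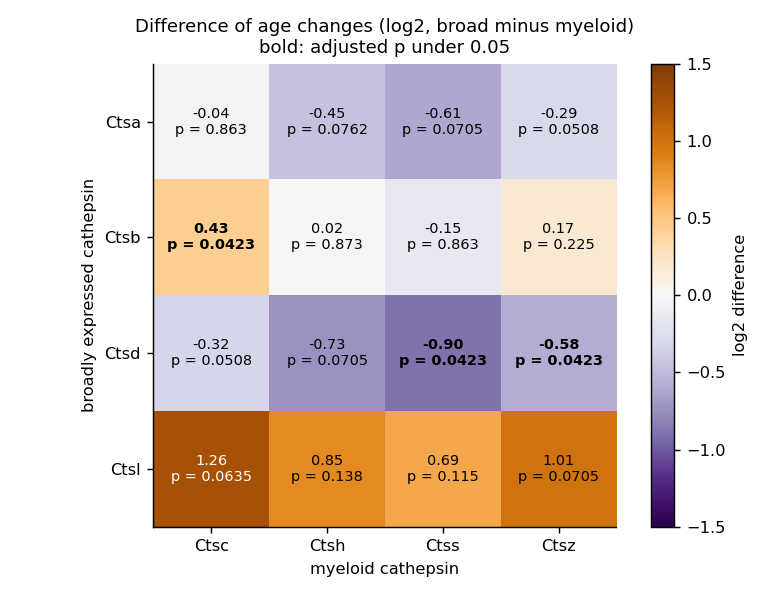
Difference of the log2 age changes for each of the 16 pairs of a broadly expressed cathepsin (rows) and a myeloid cathepsin (columns), with the adjusted p of the exact permutation test under each value and pairs that passed in bold (5 aged and 5 young animals). The Ctsl row is positive and the Ctsd row negative throughout, and only 3 cells passed.

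Broadly expressed and myeloid cathepsins were set against each other within each array, which shows unequal change only. For each of the 16 pairs the log2 ratio of the intensities was compared between aged and young animals by a two-sided exact permutation test over the 252 ways to divide the 10 arrays, where the smallest possible p is 0.00794, and adjusted over the 16 pairs. By class, the median log2 fold change was 0.53 over the 4 broadly expressed cathepsins, of which 3 passed, and 0.67 over the 4 myeloid ones, of which 4 passed. The classes overlapped, since the broadly expressed ones ran from 0.01 (Ctsd) to 1.60 (Ctsl) and enclosed the myeloid range of 0.34 (Ctsc) to 0.91 (Ctss).

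Unequal change was found for 3 of the 16 pairs. Ctsb changed more than Ctsc, by 0.43 ± 0.07 on the log2 scale (SE; exact permutation test, adjusted p = 0.0423). Ctsd changed less than Ctss, with a difference of -0.90 ± 0.25, and less than Ctsz, with a difference of -0.58 ± 0.08 (adjusted p = 0.0423 for both, exact permutation test). All 3 had the smallest p the permutations allow.

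The other 13 pairs did not pass, which does not show that they changed alike. The Ctsl differences were 1.26 ± 0.35 against Ctsc, 1.01 ± 0.37 against Ctsz, 0.85 ± 0.43 against Ctsh and 0.69 ± 0.32 against Ctss, with adjusted p from 0.0635 to 0.138 (exact permutation test). Ctsd differed from Ctsh by -0.73 ± 0.21 (adjusted p = 0.0705) and from Ctsc by -0.32 ± 0.08 (adjusted p = 0.0508, exact permutation test for both). The SD of the 4 log2 ratios with Ctsl was 0.64 to 0.96 among aged and 0.09 to 0.34 among young animals. Without aged animal 4, 11 of the 16 pairs passed, and without aged animal 1, 9 passed. Ctsb differed from Ctsh by 0.02 ± 0.14 and from Ctss by -0.15 ± 0.28, and Ctsa differed from Ctsc by -0.04 ± 0.12, with the sign of each turning when 1 animal was left out.

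**Figure D4:**
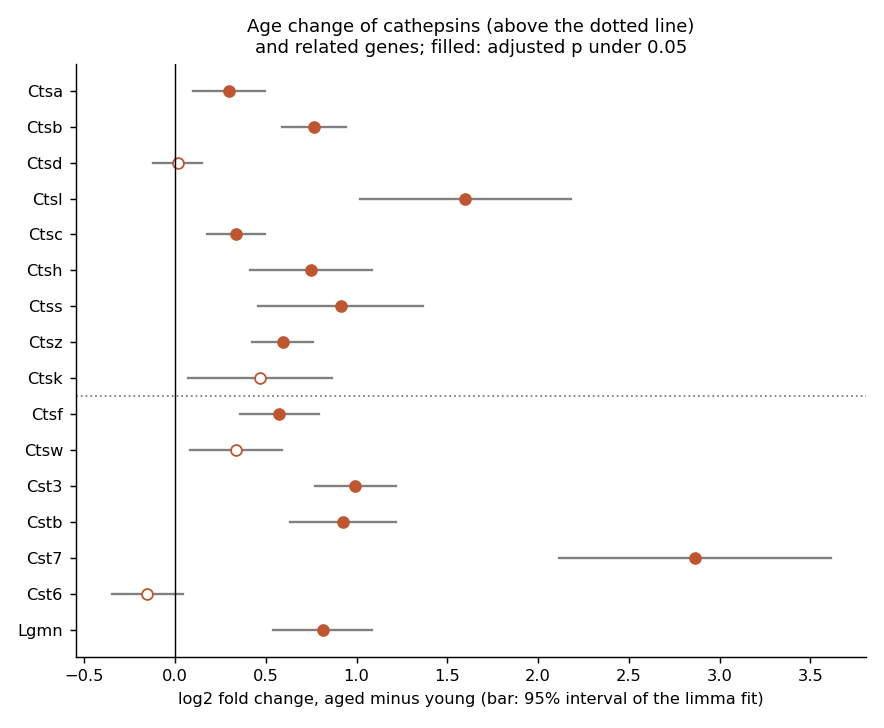
Log2 fold change, aged minus young, of the 9 cathepsins above the dotted line and of other cathepsins, inhibitors and legumain below it; points are estimates, bars 95% intervals of the limma fit, and filled points passed at an adjusted p under 0.05 (5 aged and 5 young animals). Cst7 lies farthest to the right at 2.86, and Ctsd lies at 0.01.

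Profiles nearest to each called cathepsin were found among 13007 named genes brighter than the median probe set, by the root mean square difference over the 10 arrays of log2 intensity minus the young mean. For Ctsl they were PVR (0.26), Akip1 (0.27) and Vmp1 (0.29), against a median of 1.23 over all candidates. For Ctss they were Pld4 (0.17), Fcer1g (0.17) and Ptpro (0.21), against a median of 0.75. Ctsb had Aprt (0.06), Elovl1 (0.07) and H3f3b (0.07), Ctsh had Srpk3 (0.09), Cdh13 (0.10) and Cog7 (0.12), and Ctsz had Erp29 (0.07), Cd37 (0.08) and S100a6 (0.09). Ctsc had Chid1 (0.05), Sugp1 (0.06) and Galt (0.07), and Ctsa had Zmym6 (0.06), Clk4 (0.08) and Mtpn (0.08). No gene was among the nearest of more than 1 cathepsin. Medians over all candidates were 0.31 for Ctsa and 0.32 for Ctsc, so that small differences are common for cathepsins that changed little.

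Of 9 inhibitors of cysteine cathepsins measured, 3 (33.3%) were higher and none lower (3 and 0 at an unadjusted p under 0.05, limma). Of all named genes 13.8% were higher, and of the genes at least as bright as the dimmest cathepsin 26.6%. Of the rest of the list 4 lay below the array median, and the list median was a log2 fold change of -0.10. Cst7, cystatin F, an inhibitor of immune cells that acts inside lysosomes, was at 511, 886, 408, 260 and 857 in aged animals 1 to 5 and at 147, 51.4, 59.7, 53.3 and 83.9 in the young. The groups did not overlap, and aged animals 2 and 5 were the highest and aged animal 4 the lowest. Cst7 was 7.28-fold higher (log2 fold change 2.86 ± 0.35; adjusted p = 0.000209).

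Cst3, the secreted cystatin C, was at 5142 in aged animal 1 and at 7128 to 7762 in the other aged animals, against 3172 to 3628 in the young. It was 1.99-fold higher (adjusted p = 7.16e-05). Cstb, a stefin of the cytosol, was at 626, 527, 684, 451 and 787 in the aged animals and at 283 to 374 in the young, and was 1.90-fold higher (adjusted p = 0.00067). Each of the 3 was thus without overlap between the groups.

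Of 9 other cathepsins measured, 6 lay below the array median and 1 (11.1%) passed as higher, where 13.8% of all named genes did. Ctsf, a broadly expressed cysteine cathepsin, was at 369, 466, 445, 522 and 367 in the aged animals and at 292, 311, 299, 281 and 262 in the young. Its groups did not overlap and it was 1.49-fold higher (log2 fold change 0.57 ± 0.10; adjusted p = 0.00194). Among 7 other lysosomal proteases 3 (42.9%) were higher, against 26.6% of comparably bright genes. These were Lgmn (legumain, which processes cathepsin precursors, 1.76-fold) and the carboxypeptidases Prcp (1.61-fold) and Scpep1 (1.31-fold, limma, adjusted p = 0.0753 without aged animals 4 and 5). Tpp1, tripeptidyl peptidase, was 1.28-fold lower (adjusted p = 0.011). Lgmn was at 289 in aged animal 1 and at 378 to 480 in the other aged animals, against 220 to 262 in the young.

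**Figure D5:**
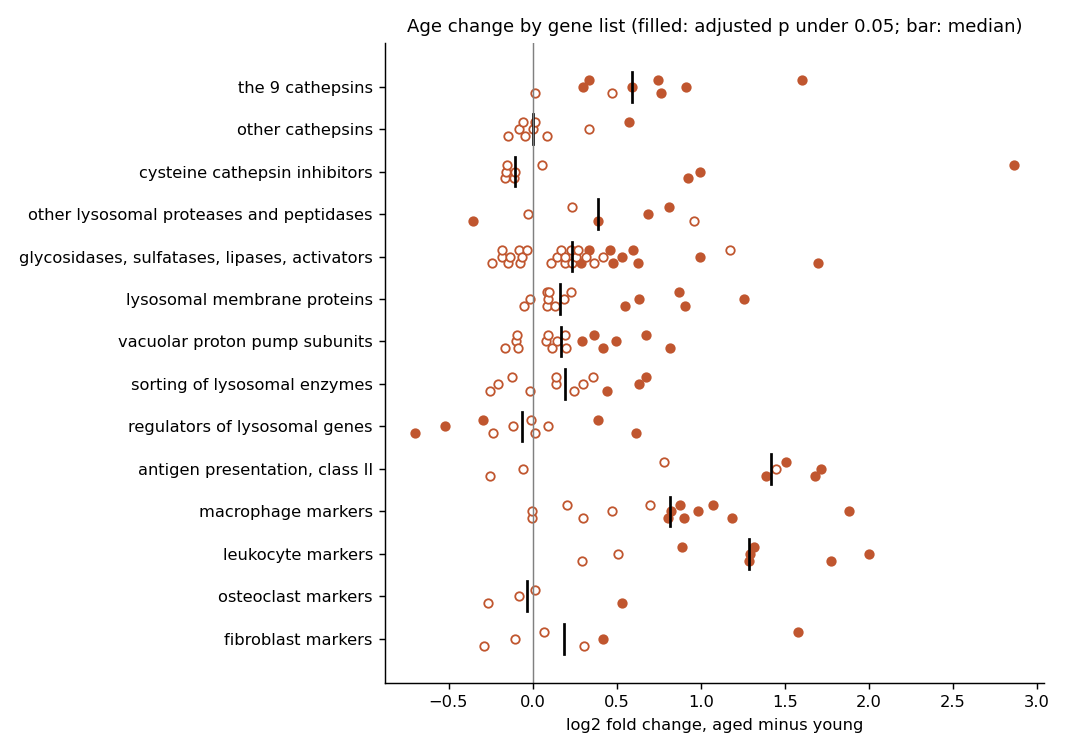
Log2 fold change, aged minus young, of the genes of each list, 1 row per list; each point is 1 gene by its brightest probe set, filled where the adjusted p was under 0.05, and the bar marks the median of the list (5 aged and 5 young animals). The median lies at 0.24 for lysosomal glycosidases and related enzymes, at 0.82 for macrophage markers and at 1.42 for class II genes.

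The shares of the other lysosomal lists are read against the 26.6% of comparably bright genes that were higher. Of 31 glycosidases, sulfatases, lipases and activators, 9 (29.0%) were higher and none lower, a share near that background, with a median log2 fold change of 0.24 (16 higher and 1 lower at an unadjusted p under 0.05, limma). Manba (β-mannosidase) was 3.24-fold, Fuca1 (α-fucosidase) 1.99-fold and Arsa (arylsulfatase A) 1.54-fold higher. Without aged animal 1, 14 were higher and 1 lower, and without aged animals 4 and 5, 6 were higher. Of 14 lysosomal membrane proteins 5 (35.7%) were higher, led by Cd63 (2.39-fold), Slc17a5 (a sialic acid exporter, 1.87-fold) and Laptm4a (1.83-fold), with a list median of 0.16. Lamp2 was 1.55-fold higher (adjusted p = 0.00146), and Lamp1, the other abundant membrane glycoprotein, had a log2 fold change of 0.08 (adjusted p = 0.518). These 2 genes were named beside the rule, after their values were seen.

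Of 16 subunits of the vacuolar proton pump, which acidifies lysosomes, 6 (37.5%) were higher, among them Atp6v1h (1.76-fold), Atp6ap2 (1.60-fold) and Atp6v0d1 (1.41-fold), with a median of 0.17. Of 12 genes that sort lysosomal enzymes, 3 (25.0%) were higher, again near the background of 26.6%: Igf2r, the large mannose 6-phosphate receptor (1.59-fold), the endocytic receptor Lrp1 (1.55-fold, adjusted p = 0.0497, and 0.157 without aged animals 4 and 5) and the retromer subunit Vps29 (1.36-fold). Neither list had a gene that passed as lower, where 0 and 2 genes were lower at an unadjusted p under 0.05 (limma).

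Of 10 regulators of lysosomal genes, 2 were higher, within the background share, and 3 were lower, where 8.7% of all named genes were lower. The 8.7% includes dim genes, which pass less often, and a lower share among comparably bright genes was not computed. The list median was -0.07. Rraga (1.53-fold) and Rragc (1.31-fold), GTPases that recruit mTORC1 to the lysosome, were higher. Rragd (1.62-fold), the folliculin gene Flcn (1.43-fold) and Foxo3 (1.23-fold) were lower, and the call of Foxo3 was lost without aged animal 1 (adjusted p = 0.0516) and without aged animals 4 and 5 (0.0524). Tfeb, the factor that binds the E-box letters found in the Ctsd promoter, had a log2 fold change of -0.01 (adjusted p = 0.955), and it too was named beside the rule.

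Outside the lysosome, of 5 calpain genes 2 (40.0%) were higher, against 26.6% of comparably bright genes: Capns1 (2.21-fold), the shared small subunit, and Capn2 (1.62-fold). Of 8 collagen and collagen turnover genes, Mmp14 (1.97-fold) and Col3a1 (1.35-fold) were higher and Col1a2 was lower (1.43-fold). The share of these 8 that was higher, 25.0%, was near the same 26.6%. Without aged animals 4 and 5, Mmp14 (adjusted p = 0.112) and Col3a1 (0.129) did not pass and 2 genes of the list were lower, and Col3a1 was also lost without aged animal 1 (0.0661).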

How the data were processed

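Total RNA from 10 muscles was labelled with biotin and hybridised to 1-colour arrays, 1 animal each, per the labels' protocols. The authors deposited 1 linear-scale intensity for each probe set, already normalized between arrays. RMA, a method that equalizes distributions between arrays, is named in the submitters' processing notes without a version. A change common to most transcripts can be hidden by such a step. The array design and genome build are not given in the sources used here. No detection call came with the values. The number of arrays limits the precision. Array medians were 13.46 to 13.74 in aged and 13.79 to 13.99 in young animals, so the deposited distributions were not fully equal between the groups. Quantile normalization of these values gave 3057 probe sets higher and 3334 lower, against 3535 and 3001 without it.

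Intensities were log2-transformed without a pseudocount or filter and fitted with limma 3.58.1 in R 4.3.3 (lmFit, eBayes, two-sided), with Benjamini-Hochberg adjustment over all 43686 probe sets and a threshold of 0.05. Values by replicate came from the deposited value table, each column of which equals a column of the table with symbols. Errors after ± are limma's SE for log2 fold changes, and for pairs the SE of the difference of group means. In simulated data on 43685 probe sets, the fit recovered 78 of 100 changes of 1.5-fold and 95 of 100 of 2-fold, with 5 false calls. The simulated noise was independent between probe sets and had the same SD in both groups. In the real arrays the SD of log2 intensity was larger in aged animals for 6 of the 9 cathepsins, so these counts need not carry over. A gene with several probe sets was read from the brightest.

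The members and the 25 gene lists were chosen with earlier results of these data known. Named were all members, the 3 largest increases and 3 largest decreases of each list among genes that passed, and the 3 nearest profiles of each called cathepsin. Alternatives were quantile normalization, median centring, a filter on dim probe sets, a pseudocount of 16, array weights, a replicate block, a mean over probe sets, a 1.5-fold rule, leaving out each array, and leaving out the arrays marked replacement, a word not explained in the labels.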

Additional observations from a re-analysis of the deposited data

Results flagged for a closer look

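Of 176 groups of 5 animals checked for a value far from the rest, 18 stood out, where chance alone gives about 1 in 20; none of the 18 groups of the cathepsins did. The values below are the gap to the nearest animal as a share of the group's range, with 0.71 the critical value for 5 animals.

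Aged animal 1 accounted for 10 of the 18. It was highest for Lyz2 (0.932), RT1-Da (0.898), the class II genes as a list (0.856), Cd74 (0.779), Laptm5 (0.758) and RT1-Bb (0.719). It was lowest for the list of sorting genes (0.858), Rragc (0.81), Cst3 (0.793) and the calpain list (0.759). Among the other aged animals, Cd2 was highest in animal 3 (0.815), the T and NK cell list in animal 5 (0.761) and Pecam1 in animal 4 (0.723).

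Among young animals, Capn2 was highest in animal 2 (0.869), the inhibitor list in animal 1 (0.796), Lgmn in animal 3 (0.732) and the osteoclast list in animal 3 (0.723), and Fabp4 was lowest in animal 3 (0.736).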

How the results depend on the processing

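Under 8 alternatives, the 1.5-fold rule not among them, and 10 fits without 1 animal each, no cathepsin passed as lower. Ctsb, Ctsc, Ctsh, Ctsl, Ctss and Ctsz kept their direction and passed every time. Under the 1.5-fold rule 5 cathepsins were higher, all of these but Ctsc. Between 6 and 8 cathepsins were higher when 1 animal was left out. Ctsa did not pass under array weights (log2 fold change 0.28), a pseudocount of 16 (0.29), quantile normalization (0.21) or without the replacement arrays (0.27), and ranged from 0.25 to 0.37 without 1 animal. Ctsd turned sign under quantile normalization (-0.061) and ranged from -0.0017 to 0.049 without 1 animal, and Ctsk ranged from 0.31 to 0.59. The number of unequal pairs was 7 without the replacement arrays and 3 to 11 without 1 animal. Pairs that turned sign when 1 animal was left out ranged from -0.083 to 0.064 (Ctsa and Ctsc), -0.095 to 0.11 (Ctsb and Ctsh) and -0.26 to 0.10 (Ctsb and Ctss). Probe sets lower in aged muscle numbered 3001, and 1846 without the replacement arrays. Quantile normalization gave 47.8% and median centring 63.0% of calls as higher, against 54.1%. The cause of these moves was not tested. Same-numbered animals did not deviate together (correlations of -0.12 to 0.03), so the numbers do not pair them; with the replicate number as a block, Ctsa did not pass (log2 fold change 0.30, adjusted p = 0.0884) and 5551 probe sets were called against 6536. No background measure limits dim probe sets here, such as those below the array median.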
